A study of Homo sapiens with 6 samples.

Results

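The genes of cholesterol and fatty acid synthesis were examined in AALE, a human line of basal cells from the bronchial epithelium that SV40 and telomerase genes made immortal. The set was taken by gene symbol from the deposited table of expected counts. Of 28 genes in the set, 27 were matched to a row, among 57736 genes in all, and all 27 were among the 15421 genes with enough counts to be tested. ACACA had no row whose identifier matched the name table, so its expression was not used here and it enters the promoter counts alone. The genes comprised 18 enzymes of the sterol route, 3 genes of sterol regulation and transport, and 6 enzymes of the fatty acid route. The series compared stable pools of AALE cells transduced with a lentiviral vector that overexpresses NRG1 (3 libraries) with stable pools carrying a lentiviral control vector (3 libraries), all grown in small airway medium. NRG1 encodes neuregulin, a growth factor that binds receptors of the ERBB family. Because each pool is made of transduced and selected cells of 1 line in culture, the comparison concerns that line and not airway tissue. Whether each library stands for a culture of its own is not stated in the labels, so p-values here reflect only how these libraries spread, which may be technical. In bulk RNA, fewer cells of a type and less RNA per cell cannot be told apart.

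Cholesterol is built from acetyl-CoA through mevalonate, isoprenoid pyrophosphates, squalene and lanosterol, and fatty acids are built from the same acetyl-CoA through malonyl-CoA. The transcription factors SREBP1 and SREBP2, encoded by SREBF1 and SREBF2, are held in the endoplasmic reticulum by INSIG proteins while sterol is plentiful. When sterol falls they travel to the Golgi, are cut by proteases and switch on most genes of both routes, with SREBP2 known mainly for sterol genes and SREBP1 mainly for fatty acid genes. In epithelial cells the products go into membranes, lipid droplets and, in the lung, surfactant.

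Total expected counts per library ran from 8612234 to 10609067 in the NRG1 libraries and from 9549284 to 13207620 in the controls. The members rested on 138 to 33998 rounded counts per library. NRG1 (ENSG00000157168) itself was at 6647, 3854 and 3781 CPM in NRG1 1 to 3, against 11.6, 7.87 and 12.3 CPM in control 1 to 3, so every library matched its label (CPM are library-scaled counts after TMM scaling). Within each group 1 library stood apart. Over the 10769 genes above 10 CPM, the median absolute difference on the log2 scale was 0.09 between NRG1 2 and NRG1 3, and 0.33 and 0.30 between NRG1 1 and these. It was 0.18 between control 1 and control 2, and 0.36 for control 3 against either. NRG1 2 and NRG1 3 still differed by more than counting noise, with a chi-square of 2.66 per degree of freedom over 15072 genes, where 1 is expected of 1 library counted again. They were by far the closest pair. In the other pairs within groups this value ran from 18.8 (control 1 and control 2) to 65.7 (control 1 and control 3). All 10 airway basal markers were detected, summing to 5922 to 7617 CPM in NRG1 libraries and 8914 to 13141 CPM in controls. Of 8 fibroblast markers, which summed to 28.3 to 32.4 CPM in NRG1 libraries and 81.2 to 120 CPM in controls, 5 had too few counts to be tested. The 6 leukocyte markers summed to 9.76 to 27.9 CPM in NRG1 libraries and 22.1 to 34.1 CPM in controls, nearly all from CD68 and CD14, with CD3E at 0 counts. The 4 endothelial markers matched to a row summed to at most 2.60 CPM in NRG1 libraries and 0.924 CPM in controls, with CDH5 at 0 counts. The fibroblast and basal sums both separated the groups in the same direction as the lower mean of many synthesis genes, and their part in those values was not tested. Most of the basal sum came from KRT5 and KRT17, whose log2 fold changes, NRG1 over control, were -0.51 and -0.995. The other basal values were -3.05 for NGFR, -2.45 for KRT14, -0.46 for ITGB4, -0.13 for PDPN and -0.11 for CAV1. ITGA6 was at -0.00041, TP63 at 0.09 and KRT15 at 2.30.

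The promoters of 6 members are printed to show which of them carry the CCAAT box, the site of the factor NF-Y that works beside SREBPs at many sterol genes. Each window holds the 250 bases before the start of the gene, 5′ to 3′ on the gene's strand, from RefSeq on build GRCh38.p14. Capitals mark CCAAT on either strand, so also ATTGG, and in SREBF2 the sterol regulatory element TCACNCCAC. MSMO1, INSIG1 and SCD varied widely between libraries, whereas SREBF2 and PMVK varied little, and FADS1 followed another order of libraries than most sterol enzymes. Members not printed differ from this split. CYP51A1 (100 to 277 CPM) and FADS2 (59.6 to 312 CPM) varied widely without a CCAAT box. TM7SF2, with 1 box, stayed between 26.1 and 36.5 CPM. Whether the box goes with the levels was not tested.
MSMO1, chr4:165327419-165327668, plus strand: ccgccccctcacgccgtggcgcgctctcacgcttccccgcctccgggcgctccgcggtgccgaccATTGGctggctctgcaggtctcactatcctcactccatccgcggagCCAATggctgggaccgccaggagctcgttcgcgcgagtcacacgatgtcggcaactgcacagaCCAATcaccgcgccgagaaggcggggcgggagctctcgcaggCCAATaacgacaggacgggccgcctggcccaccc
INSIG1, chr7:155297628-155297877, plus strand: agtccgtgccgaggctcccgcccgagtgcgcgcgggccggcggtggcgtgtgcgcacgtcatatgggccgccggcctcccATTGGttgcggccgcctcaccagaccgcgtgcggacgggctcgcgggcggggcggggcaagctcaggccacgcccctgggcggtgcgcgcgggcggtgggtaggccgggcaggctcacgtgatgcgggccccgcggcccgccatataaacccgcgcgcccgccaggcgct
SCD, chr10:100346983-100347232, plus strand: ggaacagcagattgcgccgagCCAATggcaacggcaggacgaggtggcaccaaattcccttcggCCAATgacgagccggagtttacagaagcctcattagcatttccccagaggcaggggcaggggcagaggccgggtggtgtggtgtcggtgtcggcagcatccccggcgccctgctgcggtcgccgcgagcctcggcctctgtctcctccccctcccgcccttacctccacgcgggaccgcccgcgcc
SREBF2, chr22:41832855-41833104, plus strand: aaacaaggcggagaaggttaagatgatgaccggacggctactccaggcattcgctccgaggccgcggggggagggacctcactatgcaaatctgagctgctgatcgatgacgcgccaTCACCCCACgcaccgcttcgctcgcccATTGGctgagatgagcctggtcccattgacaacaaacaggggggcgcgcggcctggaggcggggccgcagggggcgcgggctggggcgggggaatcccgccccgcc
PMVK, chr1:154936720-154936969, minus strand: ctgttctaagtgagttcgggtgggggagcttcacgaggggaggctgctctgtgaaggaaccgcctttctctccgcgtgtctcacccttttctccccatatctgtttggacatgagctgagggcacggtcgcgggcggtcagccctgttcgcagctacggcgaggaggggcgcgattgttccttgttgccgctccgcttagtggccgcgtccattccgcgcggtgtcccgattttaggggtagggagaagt
FADS1, chr11:61817004-61817253, minus strand: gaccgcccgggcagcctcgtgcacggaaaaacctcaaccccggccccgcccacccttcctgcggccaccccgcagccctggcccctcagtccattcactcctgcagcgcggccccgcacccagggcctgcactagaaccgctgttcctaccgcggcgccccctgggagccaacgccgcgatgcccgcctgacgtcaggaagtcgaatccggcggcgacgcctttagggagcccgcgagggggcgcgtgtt

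Of the 28 members, 24, ACACA among them with 3 windows, entered the counts from the RefSeq promoter table, with 33 windows in all, some overlapping. Windows on the chromosome of FDFT1 and SQLE were left out of the member counts but kept among all windows. Whether FDFT1 and SQLE have an entry was therefore not examined, and ACAT2 and FASN had none. The letters CCAAT, on either strand, were present in 23 of the 33 windows (69.7%), against 32.0% of all 35116 windows of the same length. By gene, 19 of the 24 had CCAAT in at least 1 window, and PMVK, CYP51A1, ELOVL6, FADS1 and FADS2 had none. MVK and NSDHL each held 5 matches and MSMO1 held 4, where the stretch CCAATTGG in NSDHL was counted on each strand. The element TCACNCCAC, on either strand, was present in 1 of the 33 windows, that of SREBF2, against 0.883% of all windows, and it did not overlap a CCAAT box. These matches describe letters in a window and are no measure of binding.

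No synthesis gene passed the test between NRG1 and control libraries. In the quasi-likelihood test of edgeR, with p-values adjusted by Benjamini-Hochberg over 15421 genes, 0 of 27 members had an adjusted p under 0.05, where 0.00648% of all genes did, which is NRG1 alone. At an unadjusted p under 0.05 there were 3 members, MSMO1, HSD17B7 and INSIG1, all lower in NRG1. These are 11.1% of the members, beside 6.72% of all genes lower, 5.08% higher and 11.8% in either direction. DESeq2 called 0 members, against 1.36% of all genes, or 0.759% lower in NRG1. In 1 member, HSD17B7, all 3 NRG1 libraries lay below all 3 controls, or 3.7% of members beside 10.2% of all genes; 0 members lay wholly above, beside 9.36% of all genes. The fitted log2 fold change was below 0 in 24 of 27 members, where 50% of all genes were below 0, and its median was -0.57 over the members and 0.00034 over all genes tested.

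The members varied widely inside each group. Most were at high levels in NRG1 1, control 1 and control 3, and at low levels in NRG1 2, NRG1 3 and control 2. NRG1 1 was among the 3 highest libraries in 23 of 27 members, control 1 in 25 and control 3 in 24, where each of these libraries was among the 3 highest in 49.9% to 50.2% of all genes. NRG1 2 was among the 3 highest in 3 members, NRG1 3 in 1 and control 2 in 5, where the share of all genes was 49.8%, 49.4% and 50.7%. The pooled SD within groups of log2(CPM + 0.5) had a median of 0.74 over the members and 0.32 over all genes tested. It was above 0.69, the level that 10% of all genes exceed, in 14 of 27 members. The median absolute log2 difference over the members was 1.02 between NRG1 1 and NRG1 2 and 1.07 between control 1 and control 2. Across the vectors it was 0.28 between NRG1 2 and control 2 and 0.26 between NRG1 1 and control 1. In these pairs the genes above 10 CPM differed by 0.22 and 0.27. Other pairs across the vectors were far apart, with 1.17 between NRG1 2 and control 1, 1.02 between NRG1 1 and control 2, 1.34 between NRG1 2 and control 3 and 1.51 between NRG1 3 and control 3. In 2 pairs from the same group the members were about as close as the genes above 10 CPM or closer. These were NRG1 2 and NRG1 3, at 0.09 for both, and control 1 and control 3, at 0.31 for the members and 0.36 for those genes. NRG1 1 lay inside the control range in 18 of 27 members, beside 41.7% of all genes, and below every control in 4, HSD17B7, PMVK, SREBF2 and TM7SF2, beside 30.1%.

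The library at either end differed between members. NRG1 1 was the highest of the 6 libraries in 5 members (21.7% of all genes), NRG1 2 in 1 (15.1%), NRG1 3 in 0 (12%), control 1 in 6 (10.6%), control 2 in 0 (10.7%) and control 3 in 15 (29.9%). NRG1 1 was the lowest in 3 members (22.7% of all genes), NRG1 2 in 6 (14%), NRG1 3 in 6 (13.2%), control 1 in 0 (10.9%), control 2 in 10 (11.1%) and control 3 in 2 (28.4%). The members that control 3 led were mostly sterol enzymes, whereas those that NRG1 1 led were ACAT2, FDPS, ELOVL6, FADS1 and FADS2.

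**Figure D1:**
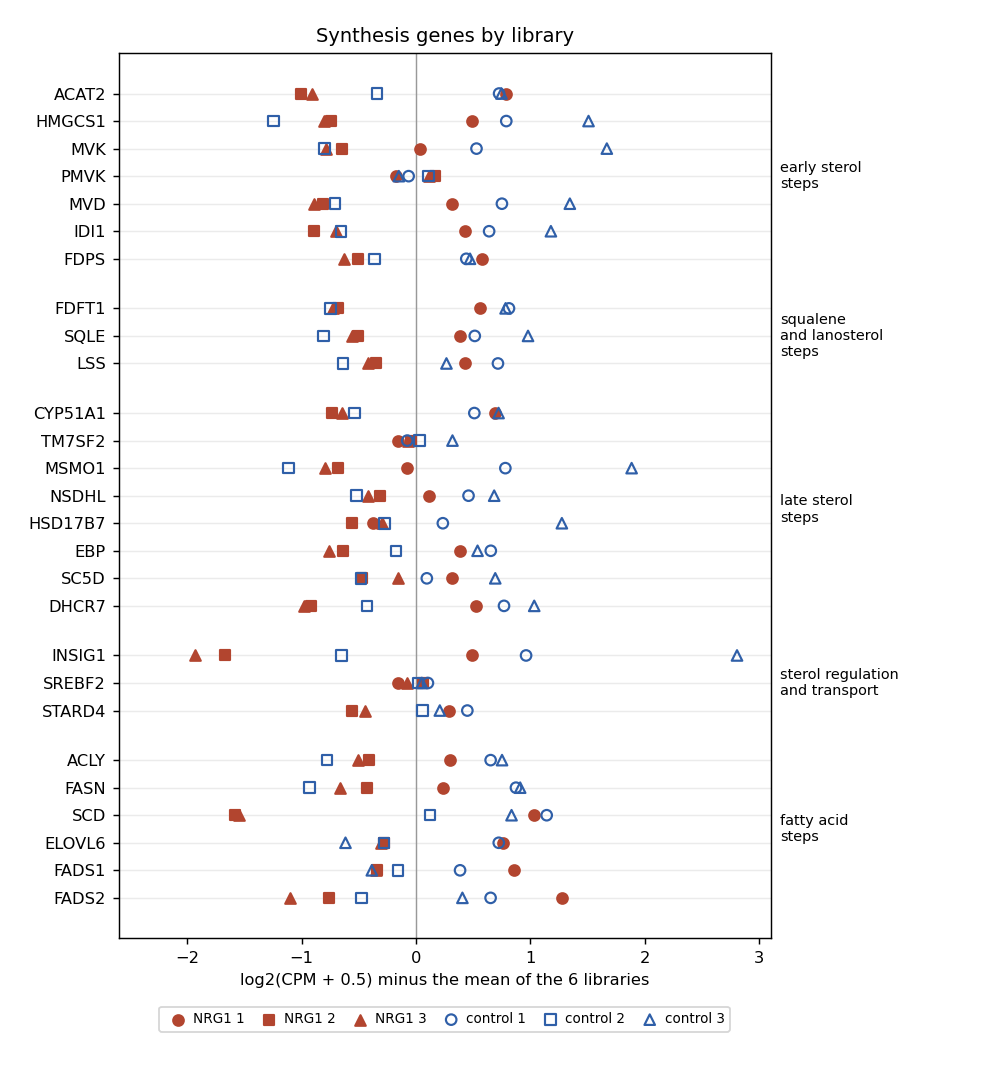
Level of each of 27 synthesis genes in each library, as log2(CPM + 0.5) minus the mean of the 6 libraries, by role; filled red symbols are NRG1 libraries, open blue symbols are controls, and circles, squares and triangles are libraries 1, 2 and 3. In most rows NRG1 1, control 1 and control 3 lie on the right and NRG1 2, NRG1 3 and control 2 on the left, while PMVK, TM7SF2 and SREBF2 stay close to 0.

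The early sterol enzymes turn acetyl-CoA into farnesyl pyrophosphate. HMGCS1 (ENSG00000112972), which makes the HMG-CoA that is reduced to mevalonate, was at 195, 82.7 and 78.8 CPM in NRG1 1 to 3, against 239, 58.1 and 394 CPM in control 1 to 3. The groups overlapped, since control 2 was the lowest of the 6 libraries and control 3 was 6.78-fold above it. The fitted log2 fold change was -0.96 (SE 0.62, edgeR adjusted p 0.546). MVK (ENSG00000110921), mevalonate kinase, was at 39.3, 24.3 and 21.9 CPM in NRG1 1 to 3, against 55.5, 21.8 and 123 CPM in control 1 to 3. Control 2 lay level with NRG1 3, and control 3 stood above the rest; the log2 fold change of -1.23 (SE 0.55) was the lowest of the early enzymes with all 6 libraries and had an adjusted p of 0.427 in edgeR. Without control 3 it was -0.46, and without control 3 and NRG1 1 it was -0.75, above the -1.26 of ACAT2. PMVK (ENSG00000163344), the next kinase of the route, was at 30.3, 38.6 and 37.0 CPM in NRG1 1 to 3, against 32.7, 36.9 and 30.8 CPM in control 1 to 3. It did not follow the other early enzymes: its levels stayed between 30.3 and 38.6 CPM, and its log2 fold change was 0.08 (SE 0.19, adjusted p 0.885 in edgeR).

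The other early enzymes also had NRG1 1, control 1 and control 3 as their 3 highest libraries. ACAT2, the cytosolic thiolase that joins acetyl-CoA units, was at 212, 60.5 and 64.6 CPM in NRG1 1 to 3, against 202, 96.2 and 205 CPM in control 1 to 3, so that NRG1 2 and NRG1 3 were below every control and NRG1 1 was above every control. MVD, mevalonate diphosphate decarboxylase, was at 74.7, 34 and 32.2 CPM in NRG1 1 to 3, against 101, 36.6 and 153 CPM in control 1 to 3. IDI1, the isomerase of isopentenyl pyrophosphate, was at 152, 60.2 and 69.0 CPM in NRG1 1 to 3, against 175, 71.1 and 255 CPM in control 1 to 3. In both genes NRG1 2 and NRG1 3 lay just below control 2, while NRG1 1 lay inside the control range. FDPS, farnesyl pyrophosphate synthase, was at 329, 155 and 142 CPM in NRG1 1 to 3, against 298, 171 and 305 CPM in control 1 to 3. Of the 7 early enzymes, 6 had a log2 fold change below 0, with a median of -0.84, and 0 passed edgeR over all genes.

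Squalene and lanosterol are made by FDFT1, SQLE and LSS, and all 3 genes overlapped between groups. FDFT1 (ENSG00000079459), squalene synthase, was at 383, 162 and 157 CPM in NRG1 1 to 3, against 457, 154 and 447 CPM in control 1 to 3. LSS (ENSG00000160285), lanosterol synthase, was at 137, 79.8 and 75.9 CPM in NRG1 1 to 3, against 168, 65.3 and 123 CPM in control 1 to 3. SQLE, squalene epoxidase, was at 195, 104 and 101 CPM in NRG1 1 to 3, against 212, 84.6 and 293 CPM in control 1 to 3. In each of the 3 genes control 2 was the lowest library, below NRG1 2 and NRG1 3. The log2 fold changes were -0.59 (SE 0.47) for FDFT1, -0.57 (SE 0.43) for SQLE and -0.28 (SE 0.36) for LSS, with adjusted p-values of 0.608 to 0.756 in edgeR. Without NRG1 1 that of FDFT1 was -1.15, not called.

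The late sterol enzymes turn lanosterol into cholesterol, and they held the member whose groups did not overlap. MSMO1 (ENSG00000052802), which removes methyl groups from the sterol ring, was at 127, 83.4 and 77.3 CPM in NRG1 1 to 3, against 231, 61.8 and 497 CPM in control 1 to 3. Control 2 was again the lowest library, and control 3 was 8.05-fold above it, so that the group means of 96 ± 27.2 CPM in NRG1 and 263 ± 219 CPM in control (SD, n = 3 each) differed by less than the control SD. Its log2 fold change was -1.46 (SE 0.61), with an unadjusted p of 0.0427 and an adjusted p of 0.413 in edgeR, and without control 3 it was -0.62. HSD17B7 (ENSG00000132196), a ketosteroid reductase of the same demethylation, was at 17.1, 14.9 and 18.1 CPM in NRG1 1 to 3, against 26.4, 18.4 and 54.7 CPM in control 1 to 3. All NRG1 libraries lay below all controls, but NRG1 3 and control 2 were nearly level. Its log2 fold change was -0.99 (SE 0.39), with an unadjusted p of 0.0323 and an adjusted p of 0.395 in edgeR, and without control 3 it was -0.43. Reads that also fit the pseudogene HSD17B7P2, itself at 2.60 to 7.39 CPM, make this count uncertain. TM7SF2 (ENSG00000149809), a sterol reductase whose step LBR can also perform, was at 26.1, 28.3 and 27.8 CPM in NRG1 1 to 3, against 27.6, 29.8 and 36.5 CPM in control 1 to 3. It varied little, with a log2 fold change of -0.19 (SE 0.19, adjusted p 0.696 in edgeR).

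DHCR7, which makes cholesterol from its last precursor in a branch of the route, was at 229.8, 84.5 and 81.1 CPM in NRG1 1 to 3, against 273, 119 and 328 CPM in control 1 to 3. EBP, the sterol isomerase, was at 107, 52.6 and 48.1 CPM in NRG1 1 to 3, against 129, 72.6 and 119 CPM in control 1 to 3. In DHCR7 and EBP, NRG1 2 and NRG1 3 lay below every control, and NRG1 1 lay inside the control range. CYP51A1, the lanosterol demethylase, was at 272, 100.4 and 107 CPM in NRG1 1 to 3, against 239, 115 and 277 CPM in control 1 to 3. NSDHL, a sterol dehydrogenase, was at 33.9, 25.1 and 23.3 CPM in NRG1 1 to 3, against 43.3, 21.7 and 50.6 CPM in control 1 to 3. SC5D, the sterol desaturase, was at 43.0, 24.7 and 30.8 CPM in NRG1 1 to 3, against 36.8, 24.5 and 55.9 CPM in control 1 to 3. In NSDHL and SC5D control 2 was the lowest library, and in CYP51A1 NRG1 2 was. CYP51A1 was like DHCR7 and EBP, with NRG1 2 and NRG1 3 below every control and NRG1 1 inside the control range. All 8 late enzymes had a log2 fold change below 0, with a median of -0.56, and 0 passed edgeR over all genes.

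**Figure D2:**
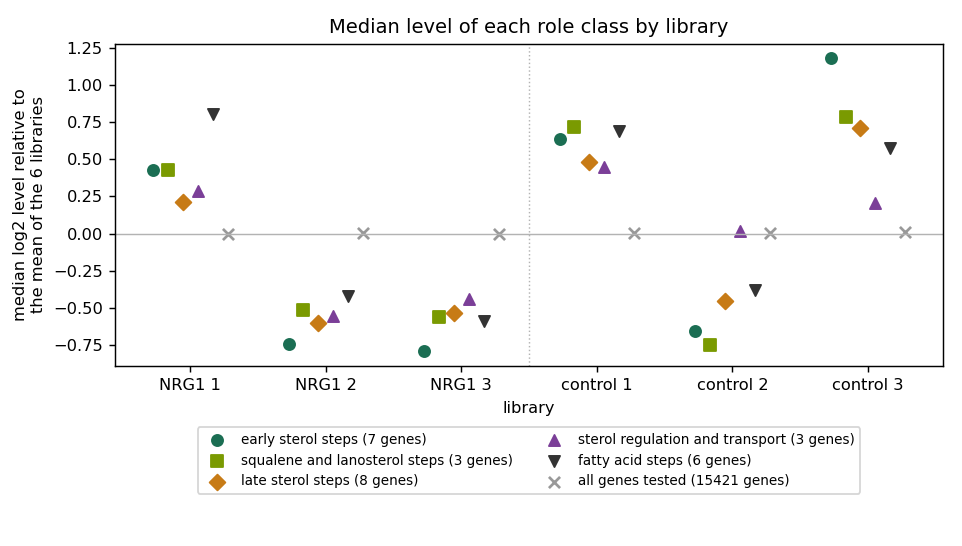
Median over the genes of each role of the log2 level relative to the mean of the 6 libraries, by library, with the number of genes in the key; grey crosses are the median of all 15421 genes tested. The medians of the sterol and fatty acid enzymes lie above 0 in NRG1 1, control 1 and control 3 and below 0 in NRG1 2, NRG1 3 and control 2, while that of sterol regulation and transport is 0.018 in control 2.

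Among the regulators, INSIG1 had the widest range of all members and SREBF2 one of the narrowest. INSIG1 (ENSG00000186480), which holds SREBPs in the endoplasmic reticulum and is itself an SREBP target, was at 108, 23.6 and 19.6 CPM in NRG1 1 to 3, against 149.5, 48.5 and 538 CPM in control 1 to 3. NRG1 2 and NRG1 3 lay below every control, NRG1 1 lay between control 2 and control 1, and control 3 was 11.1-fold above control 2. Its log2 fold change was -2.30 (SE 0.92), with an unadjusted p of 0.0356 and an adjusted p of 0.398 in edgeR; it was -1.0 without control 3 and -3.50 without NRG1 1, not called in either. SREBF2 (ENSG00000198911) was at 277, 322 and 293 CPM in NRG1 1 to 3, against 332, 313 and 319.8 CPM in control 1 to 3. The ratio of its highest to its lowest library was 1.16 in NRG1 and 1.06 in control, and its log2 fold change was -0.11 (SE 0.13, adjusted p 0.743 in edgeR), which was among the narrowest ranges of the set. STARD4, a carrier of cholesterol between membranes, was at 108, 60.2 and 65.1 CPM in NRG1 1 to 3, against 121, 92.1 and 103 CPM in control 1 to 3. NRG1 2 and NRG1 3 were its lowest libraries, and its log2 fold change was -0.44 (SE 0.25, adjusted p 0.494 in edgeR).

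The fatty acid enzymes differed in which library was highest. ACLY, which releases acetyl-CoA from citrate for both routes, was at 442, 270.02 and 253 CPM in NRG1 1 to 3, against 566, 209 and 606 CPM in control 1 to 3. FASN, fatty acid synthase, was at 591, 374 and 317 CPM in NRG1 1 to 3, against 919.9, 263 and 944 CPM in control 1 to 3. Both had control 2 as the lowest library and control 3 as the highest, as HMGCS1, SQLE and MSMO1 did. SCD (ENSG00000099194), the desaturase that makes oleate, was at 2530.04, 414 and 425 CPM in NRG1 1 to 3, against 2740.4, 1352 and 2215 CPM in control 1 to 3. NRG1 2 and NRG1 3 were at 0.307 and 0.314 of the level of control 2, while NRG1 1 lay inside the control range and 6.03-fold above the mean of NRG1 2 and NRG1 3. The log2 fold change of SCD was the lowest of the fatty acid enzymes, -0.90 (SE 0.67, edgeR adjusted p 0.6), and it was -2.33 without NRG1 1, -0.51 without NRG1 2 and -0.51 without NRG1 3, not called in any of these.

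FADS1 (ENSG00000149485) and FADS2, neighbouring desaturase genes for polyunsaturated fatty acids, and ELOVL6, an elongase, had NRG1 1 as their highest library, as ACAT2 and FDPS did among the sterol enzymes. FADS1 was at 534, 233 and 231 CPM in NRG1 1 to 3, against 386, 265 and 226 CPM in control 1 to 3. FADS2 was at 312, 75.9 and 59.6 CPM in NRG1 1 to 3, against 202, 92.3 and 170.5 CPM in control 1 to 3. ELOVL6 was at 68.1, 32.8 and 32.3 CPM in NRG1 1 to 3, against 66.4, 32.9 and 25.9 CPM in control 1 to 3. The 3 highest libraries of FADS2 were NRG1 1, control 1 and control 3, as in most sterol enzymes. Control 3, the highest library of 12 of the 18 sterol enzymes, was the lowest library in FADS1 and ELOVL6. The log2 fold change of FADS1 was the highest of all members, 0.19 (SE 0.35, adjusted p 0.844 in edgeR), but it was -0.33 without NRG1 1. That of FADS2 was -0.06 (SE 0.59) and that of ELOVL6 was 0.08 (SE 0.42). FADS1 and FADS2 are paralogs, so reads that fit both may have been shared between them.

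**Figure D3:**
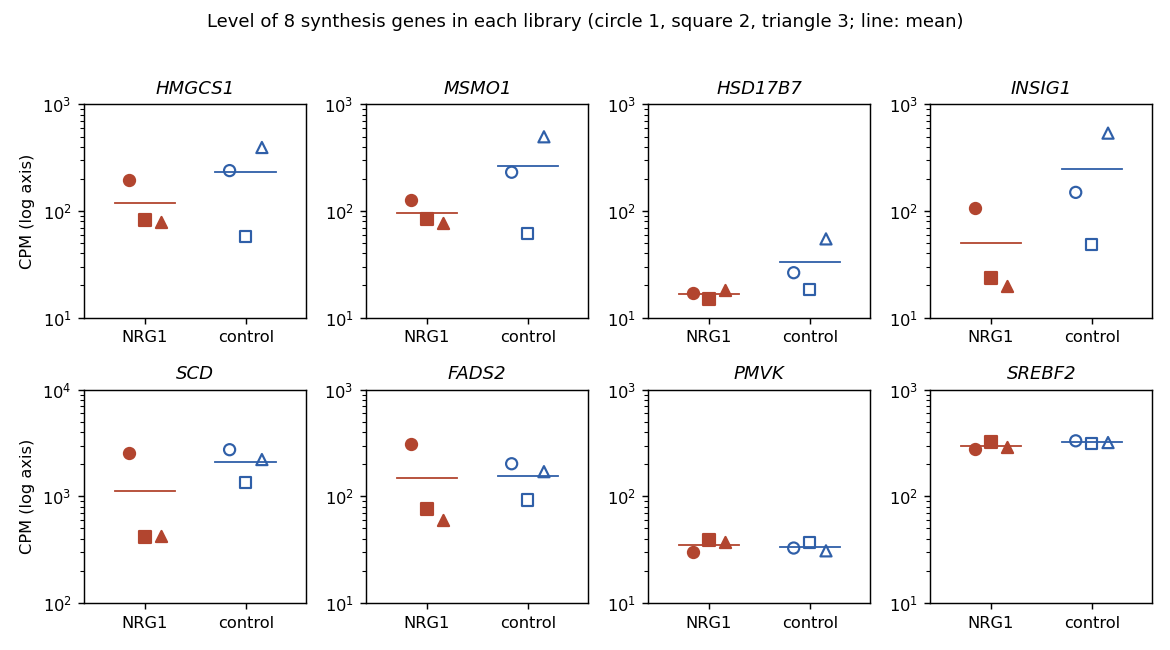
CPM of 8 members on log axes, with NRG1 libraries as filled red symbols left of open blue controls; circles, squares and triangles are libraries 1, 2 and 3, and lines are group means. HMGCS1, MSMO1 and INSIG1 reach their highest level in control 3, SCD is at 414 and 425 CPM in NRG1 2 and NRG1 3 against 1352 CPM or more elsewhere, and PMVK and SREBF2 are nearly level.

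Sterol and fatty acid steps were then set side by side in each library. The median log2 level relative to the mean of the 6 libraries was 0.39, -0.64 and -0.67 for the 18 sterol enzymes in NRG1 1 to 3, against 0.58, -0.53 and 0.77 in control 1 to 3. For the 6 fatty acid enzymes it was 0.81, -0.42 and -0.59 in NRG1 1 to 3, against 0.69, -0.38 and 0.58 in control 1 to 3. The sterol median minus the fatty acid median was -0.42, -0.22 and -0.09 in NRG1 1 to 3, against -0.10, -0.15 and 0.19 in control 1 to 3. Each level is relative to the gene's own mean, so the sign of this difference does not compare the levels of the routes. Only its change between libraries can be read. The difference was lowest in NRG1 1, the library in which FADS1, FADS2 and ELOVL6 were highest. The median fitted log2 fold change was -0.59 over the sterol enzymes and -0.29 over the fatty acid enzymes; no test of this difference was made. Without NRG1 1 these medians were -1.06 and -0.93, and without control 3 they were -0.37 and -0.23. Without NRG1 2 the fatty acid median was -0.07, without NRG1 3 it was -0.05, and without control 1 and control 2 in turn it was -0.09 and -0.59. The sterol median without control 2 was -0.90.

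**Figure D4:**
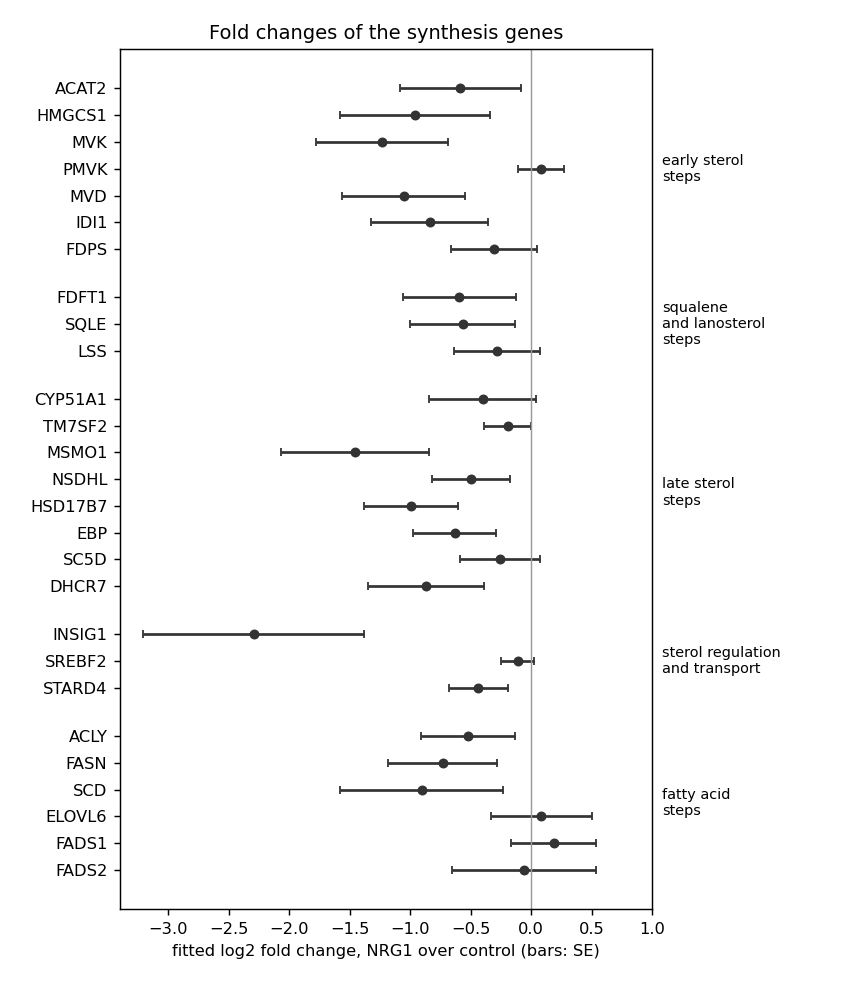
Fitted log2 fold change of each member, NRG1 over control, from edgeR with all 6 libraries; bars are 1 SE. Most points lie left of 0 with wide bars, INSIG1 lies lowest at -2.30, and PMVK, ELOVL6 and FADS1 lie right of 0.

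Leaving out NRG1 1 and control 3, which stood apart from their groups over the genes above 10 CPM, gave a comparison of 2 against 2 libraries. It was chosen after seeing the data. Its NRG1 group was NRG1 2 and NRG1 3 alone, the closest pair of libraries within a group. In it 5 of 27 members passed edgeR with the same adjustment, all lower in NRG1, where 4.79% of all genes were called as lower, 5.04% as higher and 9.82% in either direction. They were SCD (log2 fold change -2.29, adjusted p 0.00689), STARD4 (adjusted p 0.0214), INSIG1 (log2 fold change -2.20, adjusted p 0.0274), ACAT2 (adjusted p 0.041) and EBP (adjusted p 0.0437). In each of the 5, NRG1 2 and NRG1 3 also lay below control 3, which had been left out, and NRG1 1, also left out, lay above control 2. NRG1 2 and NRG1 3 both lay below every control in 12 of 27 members, beside 22.2% of all genes. In 11 of 27 members NRG1 2 and NRG1 3 were both above control 2, beside 42.2% of all genes. These were HMGCS1, MVK, PMVK, FDFT1, SQLE, LSS, MSMO1, NSDHL, SC5D, ACLY and FASN. Removing libraries for their distance lowers the spread within groups over the genes as a whole, so these p-values are too small by an unknown amount. Over the members, the median absolute log2 difference was 1.07 between control 1 and control 2, which were kept. It was 0.31 between control 1 and control 3.

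Other genes of the pathway, from lists that held no member, spread less within groups. Among 5 genes of the SREBP machinery 0 passed edgeR. INSIG2, the second INSIG gene, was at 19.8, 24.0 and 20.2 CPM in NRG1 1 to 3, against 18.4, 17.6 and 14.1 CPM in control 1 to 3, so that the groups did not overlap (log2 fold change 0.36, SE 0.22, adjusted p 0.532 in edgeR). It was the 1 gene of the 5 with all NRG1 libraries above all controls, beside 9.36% of all genes. SREBF1 was at 163, 92.6 and 83.3 CPM in NRG1 1 to 3, against 196, 132 and 134 CPM in control 1 to 3, with NRG1 2 and NRG1 3 below every control (adjusted p 0.536 in edgeR). Without NRG1 1 and control 3 it was called as lower in NRG1, with a log2 fold change of -0.90 and an edgeR adjusted p of 0.0251. The log2 fold change of SCAP, the escort of SREBPs, was -0.23 (SE 0.18). For MBTPS2, a protease that cuts them, it was 0.13 (SE 0.23). Among 4 further sterol and isoprenoid genes 0 passed. LBR, which can perform the step of TM7SF2, was at 202, 112 and 123 CPM in NRG1 1 to 3, against 117, 109 and 91.3 CPM in control 1 to 3, with NRG1 1 as the highest library (log2 fold change 0.46, SE 0.24, adjusted p 0.47 in edgeR). ERG28, a scaffold of the demethylation enzymes, followed the sterol members at 80.1, 41.8 and 38.3 CPM in NRG1 1 to 3, against 75.7, 45.0 and 102 CPM in control 1 to 3. GGPS1 and DHDDS draw isoprenoids to other products. The fitted change of GGPS1 was -0.14 on the log2 scale, with an SE of 0.19, and that of DHDDS was -0.00046, with an SE of 0.20.

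Of 19 other fatty acid genes 0 passed edgeR, and 4 had an unadjusted p under 0.05, all lower in NRG1, beside 6.72% of all genes lower and 11.8% in either direction. In the comparison of 2 against 2 libraries, 0 of the 19 were called as lower and 2, FADS3 and SCD5, as higher in NRG1. Of all genes, 4.79% were called as lower there and 5.04% as higher. TECR, an enzyme of fatty acid elongation, was at 129, 126 and 114 CPM in NRG1 1 to 3, against 145, 159 and 181 CPM in control 1 to 3. Its groups did not overlap, and its log2 fold change was -0.40 (SE 0.15, adjusted p 0.387 in edgeR). All NRG1 libraries lay below all controls in 2 of the 19 genes, TECR and ACACB. That is 10.5%, beside 10.2% of all genes. LPIN1, a phosphatase of lipid synthesis, was at 81.7, 66.1 and 70.5 CPM in NRG1 1 to 3, against 126, 70.7 and 285 CPM in control 1 to 3. SLC25A1, the mitochondrial citrate carrier, was at 97.9, 80.3 and 69.7 CPM in NRG1 1 to 3, against 125, 90.7 and 155 CPM in control 1 to 3. ACSS2, which makes acetyl-CoA from acetate, was at 119.8, 90.3 and 92.6 CPM in NRG1 1 to 3, against 156, 101 and 257 CPM in control 1 to 3. In LPIN1, SLC25A1 and ACSS2 the groups overlapped through NRG1 1 and control 2, and control 3 was the highest library. Over these 19 genes the median SD within groups was 0.29, against 0.74 over the members. The log2 fold change was below 0 in 11 of 19, where 50% of all genes were below 0.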

How the data were processed

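RNA was polyA-selected and made into TruSeq libraries, per the labels' protocols, and titles gave each library its group and number. The authors deposited expected counts by Ensembl identifier, neither whole nor scaled. STAR 2.5.3a, RSEM 1.3.0 and hg19 appear, without roles, in the submitters' processing notes, and their gene annotation was not named there. RSEM shares reads that fit several genes among them. A second deposited table held log2 CPM of 14759 genes and equalled log2 CPM from TMM-scaled counts at prior count 0.25; the design had assumed CPM there, so values were turned back to CPM before a pseudocount was added. A name table gave symbols for 51959 of 57736 genes. Rounded expected counts went into edgeR 4.0.16 under R 4.3.3 (filterByExpr, TMM, two-sided quasi-likelihood test without covariates, adjusted p under 0.05). SEs are the fold change divided by the root of F.

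The members and lists were chosen with earlier results of these data known. Values in every library are given for all tested members; fold changes and tests are given for those with an unadjusted p under 0.05, those whose groups did not overlap and the highest and lowest of each role, and for some others chosen after their values were seen. Of each other list, up to 4 genes with the smallest p are named. FADS3, SCD5 and ACACB are named besides, where a count lists them. Alternatives were DESeq2 1.42.0, 2 other scalings, 2 other filters, limma 3.58.1 on log2(CPM + 1) and log2(CPM + 0.25), voom on unrounded counts, a block for the replicate number and each library left out. Added after seeing the data were 2 against 2 libraries and edgeR's older dispersion method. The tests were tested on simulated data. ACACA was left out of the expression results for want of a matched identifier.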

Additional observations from a re-analysis of the deposited data

How the results depend on the processing

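Of 27 synthesis genes, 0 passed in every setting, leaving out each library included (0 to 0), except in the 2 against 2 comparison, with 5. Genes called over the whole table numbered 1 with all 6 libraries in edgeR, 209 in DESeq2, 21 without a low-count filter, 2 in limma-voom without rounding and 1515 in the 2 against 2 comparison; leaving out each library gave 1 to 37. The labels do not say that replicate numbers pair the libraries. Deviations of same-numbered libraries correlated at 0.02, 0.15 and -0.09 over genes. With 1 library apart in each group, these values cannot decide whether the numbers pair libraries. The fit with the replicate block called 2 genes and 0 members. The sterol median ran from -1.06 to -0.37 and the fatty acid median from -0.93 to -0.05 when libraries were left out in turn. Over the 24 genes that the rules for naming picked, NRG1 among them, and 17 alternatives, 3 results newly passed and 14 turned sign, all of the latter uncalled. The 3 were SCD, INSIG1 and SREBF1 in the 2 against 2 comparison. Genes named outside those rules, such as ACAT2, EBP and STARD4, are not in this count. With a library left out, fold changes ran from -0.61 to 0.049 for LSS, -0.33 to 0.43 for FADS1, -0.13 to 0.25 for MBTPS2, -0.23 to 0.0073 for GGPS1 and -0.10 to 0.10 for DHDDS. The 2 against 2 comparison gave -0.49 for FADS1, -0.23 for MBTPS2 and 0.20 for DHDDS. DHDDS, near 0 throughout, was also 0.0063 in DESeq2, 0.052 with upper-quartile scaling, 0.00061 with a pseudocount of 1 and 0.00063 with 0.25 in limma-trend, and 0.0080 in limma-voom. The cause was not tested. With 3 libraries a group and a median within-group SD of 0.74 in the members, an uncalled difference does not show that the groups were alike.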
